A study of Arabidopsis thaliana with 18 samples.

Results

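The lipid transfer protein genes LTP1 (AT2G38540), LTP2 (AT2G38530), LTP3 (AT5G59320), LTP4 (AT5G59310), LTP5 (AT3G51600) and LTP6 (AT3G08770) are 6 of the 32547 Arabidopsis loci counted in this series. They were taken by their identifiers, and the set was chosen by the levels of LTP4 in these same libraries, which were high in ban-6, tt5-4 and Col-0. The levels of LTP4 are therefore a description. What was examined is which of the other 5 genes had the pattern of LTP4 from library to library.

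Seedlings of Arabidopsis thaliana were shaken for 4 days in 3% sucrose under 24 h of light, and polyadenylated RNA was sequenced. The wild type was Col-0, with 2 files that were counted as 1 sample because they differed by less than the sampling noise. The 16 mutant libraries were 1 each of the insertion alleles ban-6 and ban-7, tt1-4 and tt1-5, tt3-3 and tt3-4, tt5-3 and tt5-4, tt8-7, tt8-8, tt8-9, tt8-10, tt8-11 and tt8-12, and ttg1-23 and ttg1-24. All groups shared the culture and its 4 days. The loci belong to the flavonoid pathway: BAN, TT3 and TT5 encode enzymes, and TT1, TT8 and TTG1 encode a zinc finger, a bHLH and a WD40 regulator. Each allele is 1 insertion line, so an allele cannot be told apart from its line or its library.

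Lipid transfer proteins of type I are small, secreted proteins held together by disulfide bonds between conserved cysteines, with a hydrophobic tunnel that binds fatty acids and other lipids. In Arabidopsis and other plants they are found largely in the walls of epidermal cells and have been linked to the cuticle, the layer of cutin and wax that seals the shoot surface. LTP3 and LTP4 are also known as genes that respond to abscisic acid, drought and salt, and LTP2 as an abundant protein of the etiolated hypocotyl epidermis.

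The genes lie as 2 neighbouring pairs and 2 single genes, given here on TAIR10.1. On chromosome 5, LTP4 (chr5:23924990-23925957, minus strand) and LTP3 (chr5:23928954-23929816, plus strand) are transcribed away from each other, with 2996 bases and 0 annotated genes between them. On chromosome 2, LTP2 (chr2:16128176-16129399) and LTP1 (chr2:16130290-16131240) lie in tandem on the plus strand, 890 bases apart. LTP5 (chr3:19138338-19139423) and LTP6 (chr3:2664069-2664888) lie apart from each other on the minus strand of chromosome 3. Each gene has 2 exons and overlaps no other annotated gene. Coding sequences were 84.5% identical between LTP3 and LTP4 and 82.4% between LTP1 and LTP2, and 50.3% to 67.8% for the other pairs of members. No stretch of 50 bases of a member's transcript occurred exactly in the transcript of another gene, but LTP3 and LTP4 came within 2 mismatches of each other in 5 of 720 such stretches of LTP3, and LTP1 and LTP2 in 22 of 783 of LTP1. How reads that map to several places were counted is not stated, so some exchange of reads within these pairs is possible.

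The 250 bases before the annotated start of LTP4, LTP3 and LTP2 are printed because LTP3 followed LTP4 most closely and LTP2 only in part. They were read from TAIR10.1, 5′ to 3′ on the strand of the gene. Capitals mark an exact direct repeat of 29 bases in LTP4 (chr5:23925958-23926207, minus strand), the letters TATAAA in LTP3 (chr5:23928704-23928953, plus strand) and the letters ACGTG, here on the other strand, in LTP2 (chr2:16127926-16128175, plus strand).
LTP4: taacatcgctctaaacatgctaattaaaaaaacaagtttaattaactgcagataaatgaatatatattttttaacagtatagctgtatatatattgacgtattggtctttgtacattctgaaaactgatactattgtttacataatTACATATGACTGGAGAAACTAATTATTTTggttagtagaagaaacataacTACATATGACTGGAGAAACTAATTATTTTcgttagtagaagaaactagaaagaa
LTP3: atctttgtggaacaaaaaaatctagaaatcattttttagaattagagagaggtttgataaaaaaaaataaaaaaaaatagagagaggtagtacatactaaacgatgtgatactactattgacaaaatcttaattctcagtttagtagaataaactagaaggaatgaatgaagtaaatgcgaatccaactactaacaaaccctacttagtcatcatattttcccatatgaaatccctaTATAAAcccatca
LTP2: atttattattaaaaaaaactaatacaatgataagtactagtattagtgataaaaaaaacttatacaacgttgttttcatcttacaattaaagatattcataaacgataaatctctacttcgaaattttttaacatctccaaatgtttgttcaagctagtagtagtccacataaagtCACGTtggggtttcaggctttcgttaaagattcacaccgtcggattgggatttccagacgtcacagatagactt
The copies in LTP4 begin at positions -104 and -54 from the start and are 21 bases apart. An exact repeat as long or longer was present in 99 of 27443 promoters of the same length (0.361%), whereas the median of the longest repeats was 8 bases. LTP3 had a longest repeat of 11 bases, a length reached or passed in 17.5% of promoters, and TATAAA at position -13, which 32.9% of promoters held on the gene's strand. The core of the abscisic acid response element, ACGTG on either strand, occurred once in LTP2, at position -74, and 0 times in the other 5 promoters, against 22.9% of all promoters. The L1 box of epidermal genes, TAAATGCA or TAAATGTA on either strand, occurred in 0 of the 6, against 4.49% of all promoters. The MYB-type letters AACCA on either strand occurred 5 times in LTP5, once each in LTP1 and LTP4, and 0 times in LTP2, LTP3 and LTP6, against 51.1% of promoters. These matches describe letters in a window of 250 bases and not binding.

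The shallowest library was ttg1-24, with 8057534 counts, and the deepest tt3-4, with 27145377. Levels are given as counts per 1000000 counts of the loci (CPM) with exact 95% Poisson intervals, which cover counting error only. The targeted genes checked some labels: TT5 was at 4.23 to 4.50 CPM in the tt5 libraries against 43.4 in Col-0, and TTG1 at 0 to 15.9 CPM in the ttg1 libraries against 30.4. TT3, at 211 to 274 CPM in its own libraries, was above the 63.2 of Col-0, TT8 ran from 6.97 to 102 CPM in the libraries labelled tt8 against 11.5 in Col-0, and BAN and TT1 had at most 2 counts and 1 count in any library. The deposited files carry short names unlike the alleles, the one for ban-6 resembling HEMA1, so the line rests on the title; in ban-6 HEMA1 had 46.3 CPM (41.7 to 134 elsewhere) and the related gene HEMA2 had 10.2 CPM (52.8 to 369 elsewhere). Seedling markers were present at low levels, with 12 photosynthesis genes summing to 113 to 409 CPM and 0 of them without counts in all libraries, beside 899 to 21437 CPM for 12 seed storage and oil body genes.

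LTP4, a small secreted protein known for its response to abscisic acid and drought, had the widest range of the 6 members. The ban alleles ban-6 and ban-7 had 741 and 21.1 CPM, and the level was 44.5 in tt1-4 and 460 in tt1-5, 61.1 in tt3-3 and 34.7 in tt3-4, and 79.4 in tt5-3 and 730 in tt5-4. For the 6 libraries of tt8 the levels were 210, 645, 12.1, 124, 28.7 and 30.9 CPM from tt8-7 to tt8-12 in numerical order. It was at 311 CPM in ttg1-23, 530 in ttg1-24 and 709 in Col-0. The highest mutant libraries were alleles of different loci, and the partner of ban-6, ban-7, was among the lowest. The order was continuous: below ban-6, tt5-4 and Col-0 came tt8-8, ttg1-24 and tt1-5, and Poisson intervals overlapped in 4 of the 16 pairs of neighbours. From tt8-9, where 219 counts gave an interval of 10.5 to 13.8 CPM, to ban-6 the level rose 61.4-fold. The standard deviation of log2(CPM + 1) over 17 samples was 2.05 for LTP4, higher than for 99.8% of 15072 genes with a mean of at least 5 CPM, whose median was 0.27.

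**Figure D1:**
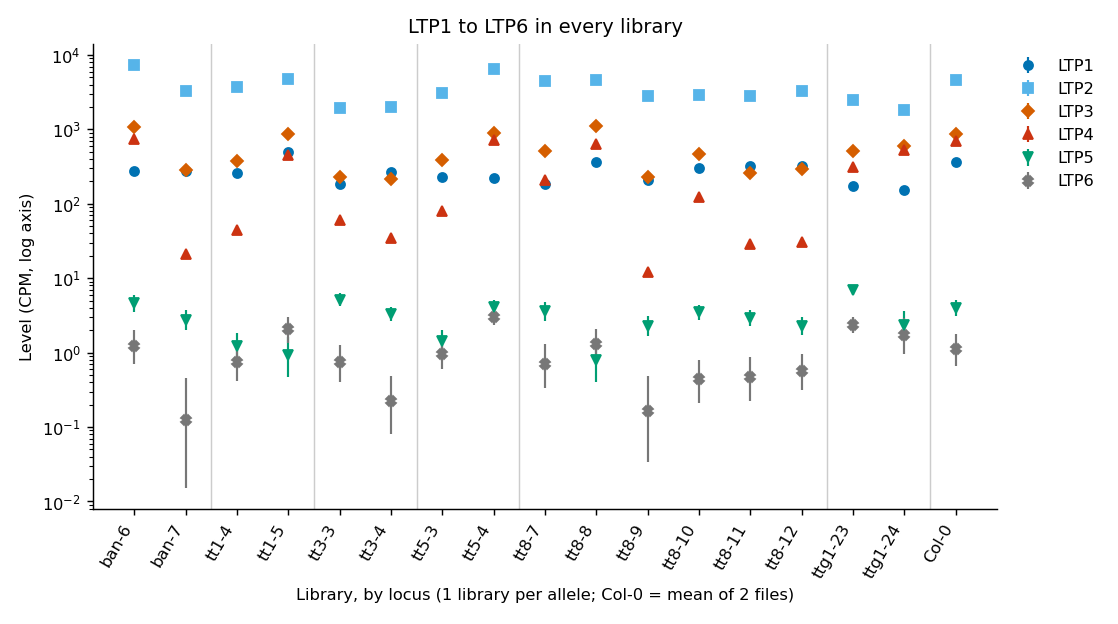
Level of the 6 genes in each of 17 samples, in CPM on a log axis, with exact 95% Poisson intervals (counting error only); grey lines part the loci. LTP4 runs from 12.1 to 741 CPM, with ban-6, tt1-5 and tt5-4 well above ban-7, tt1-4 and tt5-3, while LTP1 stays between 155 and 493 CPM.

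LTP3, the divergent neighbour and closest relative of LTP4, followed it over a narrower range. Its level was 1074 CPM in ban-6 and 281 in ban-7, 373 in tt1-4 and 858 in tt1-5, 226 in tt3-3 and 217 in tt3-4, and 387 in tt5-3 and 885 in tt5-4. It was 520, 1110, 226, 470, 257 and 297 CPM from tt8-7 to tt8-12, 518 in ttg1-23, 604 in ttg1-24 and 857 in Col-0. The libraries high for LTP3 were those high for LTP4, and its lowest level was 217 CPM in tt3-4. Pearson's r of log2(CPM + 1) with LTP4 was 0.94 and Spearman's rho 0.90 over 17 samples. Within the 14 samples other than ban-6, tt5-4 and Col-0, r was 0.91 and rho 0.86, and r was 0.93 over the 15 samples without tt8-9 and ban-6, the farthest from the median of LTP4. Leaving out ban-6 alone gave 0.93. Each point is 1 library whose depth both genes share, and r is given as a description.

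The likeness did not extend to equal proportions. Per kilobase of exon, the ratio of LTP4 to LTP3 ran from 0.0494 in tt8-9 to 0.813 in ttg1-24, with a median of 0.250. LTP4 was thus far below LTP3 where both were low and came close to it in ttg1-24. The gene next to LTP4 on its outer side, AT5G59305, had a median of 0 CPM, too low to compare. The genes beyond it did not share the pattern. UBC7, a ubiquitin-conjugating enzyme gene, had an r of -0.74 with LTP4 at 7.07 to 20.1 CPM. UXS3, a UDP-xylose synthase gene, had an r of -0.43 at 44.6 to 92.5 CPM. On the side of LTP3, AT5G59330 had a median of 0.132 CPM, also too low to compare.

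LTP6 was a trace transcript, with 2 to 64 counts in a library. It was at 1.22 CPM in ban-6, 0.125 in ban-7, 0.756 in tt1-4, 2.06 in tt1-5, 0.748 in tt3-3, 0.221 in tt3-4, 0.970 in tt5-3 and 3.05 in tt5-4. From tt8-7 to tt8-12 it was at 0.707, 1.31, 0.165, 0.440, 0.474 and 0.574 CPM, and it was at 2.37 in ttg1-23, 1.74 in ttg1-24 and 1.12 in Col-0. The highest samples were again among those high for LTP4, but the top 3 were tt5-4, ttg1-23 and tt1-5, and ban-6 and Col-0 stood in the middle. The Poisson intervals of all 16 pairs of neighbours in its order overlapped. Its r with LTP4 was 0.83 and its rho 0.83 over 17 samples, with an r of 0.85 in the 14 samples and 0.82 in the 15.

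LTP2, which encodes the most abundant of these transcripts, followed LTP4 in part. It was at 7270 CPM in ban-6, 3285 in ban-7, 3686 in tt1-4, 4704 in tt1-5, 1924 in tt3-3, 2030 in tt3-4, 3054 in tt5-3 and 6480 in tt5-4. It was at 4500, 4632, 2791, 2911, 2788 and 3320 CPM from tt8-7 to tt8-12, 2473 in ttg1-23, 1802 in ttg1-24 and 4648 in Col-0, and took 0.180% to 0.727% of all counts. Like LTP4 it was highest in ban-6 and tt5-4, but ttg1-24, one of the higher libraries for LTP4, was its lowest. Its r with LTP4 was 0.52 and its rho 0.53 over 17 samples, 0.44 over the 15, and 0.22 with a rho of 0.18 within the 14, so that the relation was weak without ban-6, tt5-4 and Col-0. With LTP3 its r was 0.72 over 17 samples.

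LTP1, the tandem neighbour of LTP2, did not follow LTP4. The alleles ban-6 and ban-7 had 279 and 278 CPM, and the level was 256 in tt1-4 and 493 in tt1-5, 184 in tt3-3 and 271 in tt3-4, and 232 in tt5-3 and 223 in tt5-4. It was at 187, 366, 210, 306, 324 and 324 CPM from tt8-7 to tt8-12, 176 in ttg1-23, 155 in ttg1-24 and 368 in Col-0. In the ban and tt5 pairs, where LTP4 differed 35.1-fold and 9.19-fold between alleles, the levels of LTP1 were nearly equal. Its r with LTP4 was 0.08 and its rho 0.08 over 17 samples, with an r of 0.01 in the 14 samples and -0.01 in the 15. Its own tandem neighbour LTP2 had an r of 0.45 with it, and the ratio of LTP2 to LTP1 per kilobase ran from 5.59 in tt3-4 to 21.8 in tt5-4.

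LTP5, a relative known for a role in pollen tube growth, was low, with 11 to 188 counts in a library. It was at 4.59 CPM in ban-6, 2.75 in ban-7, 1.24 in tt1-4, 0.918 in tt1-5, 5.18 in tt3-3, 3.32 in tt3-4, 1.46 in tt5-3 and 4.16 in tt5-4. It was at 3.61, 0.799, 2.31, 3.52, 2.94 and 2.30 CPM from tt8-7 to tt8-12, 6.97 in ttg1-23, 2.36 in ttg1-24 and 3.99 in Col-0. Its lowest libraries, tt8-8 and tt1-5, were among the higher ones for LTP4. Its r with LTP4 was 0.09 and its rho 0.28 over 17 samples, with an r of -0.16 in the 14 samples and -0.01 in the 15.

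**Figure D2:**
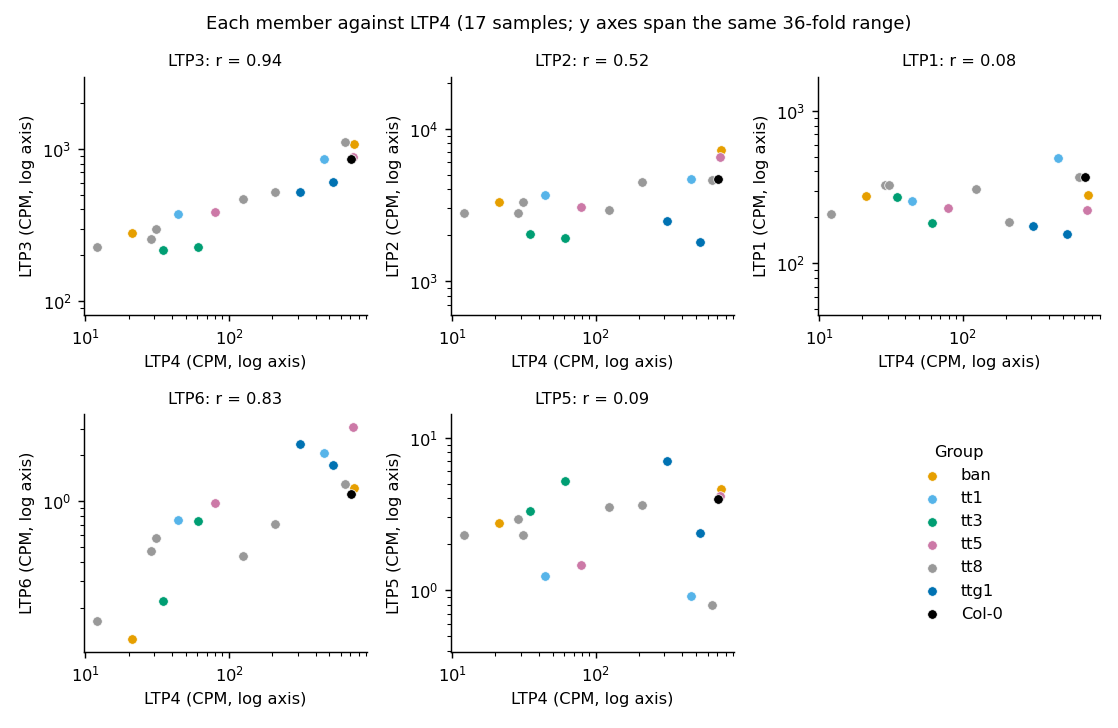
CPM of LTP3, LTP2, LTP1, LTP6 and LTP5 (y axes, log scale) against CPM of LTP4 (x axes, log scale) in 17 samples, coloured by group. LTP3 (r = 0.94) and LTP6 (r = 0.83) rise along LTP4, LTP2 (r = 0.52) does so mainly at its high end, and LTP1 (0.08) and LTP5 (0.09) show no slope.

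Levels of different genes were compared per kilobase of exon. By median CPM per kilobase the order was LTP2 at 2952, LTP3 at 612, LTP1 at 326, LTP4 at 150, LTP5 at 3.00 and LTP6 at 1.04. In ban-6, tt5-4 and Col-0 LTP4 stood above LTP1 on this scale, at 893, 879 and 854 CPM per kilobase against a highest value of 593 for LTP1 in any library. Against Col-0, CPM was lower in 15 of 16 mutant libraries for LTP1, 14 for LTP4, 13 for LTP2, 12 for LTP3, 12 for LTP5 and 10 for LTP6. For LTP4 the 2 libraries above Col-0 were ban-6 and tt5-4, and after TMM scaling both fell below it, so that all 16 were lower. The position of these 2 libraries against Col-0 thus depended on the scaling.

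Most of the spread of LTP4 lay between alleles of the same locus. By locus the level of LTP4 was 381 ± 509 CPM in ban (mean ± SD, n = 2), 252 ± 294 in tt1 (n = 2), 47.9 ± 18.7 in tt3 (n = 2), 405 ± 460 in tt5 (n = 2), 175 ± 242 in tt8 (n = 6) and 420 ± 154 in ttg1 (n = 2). In 4 of the 6 loci, those of ban, tt1, tt5 and tt8, the SD exceeded the mean. The 2 alleles of a locus differed 35.1-fold in ban, 10.3-fold in tt1, 9.19-fold in tt5, 1.76-fold in tt3 and 1.70-fold in ttg1, and the 6 tt8 alleles spanned 53.4-fold. Of the squared deviations of log2 levels among 16 mutant libraries, 76.1% lay within loci for LTP4 and 69.5% for LTP3. The other members had 53.0% (LTP5), 48.2% (LTP1), 44.2% (LTP6) and 38.6% (LTP2), against a median of 64.0% over 15072 genes.

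In the 5 loci with a pair of alleles, LTP3 was higher in the allele with more LTP4 in 5 of 5 pairs, by 1.04-fold to 3.83-fold. LTP6 was so in 4 of 5, LTP2 and LTP5 in 3 of 5 and LTP1 in 2 of 5. For LTP6 the ban pair rested on 16 counts against 2, a ratio of 9.77 with an exact 95% interval of 2.30 to 87.6 from counting alone. LTP2 in tt3 differed little between alleles (1977 ± 75.2 CPM, n = 2) and was lowest there and in ttg1 (2138 ± 475 CPM, n = 2). By insertion collection, the median of LTP4 was 311 CPM in 9 SALK lines and 47.9 CPM in 6 SAIL lines, but the ranges overlapped, at 12.1 to 741 and 21.1 to 530 CPM. The part of the collection in the levels was not tested.

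**Figure D3:**
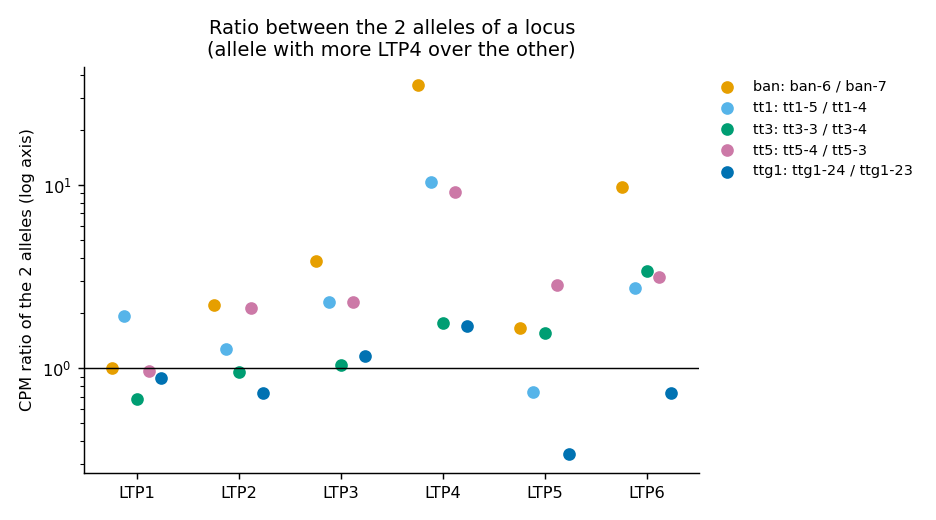
Ratio of CPM between the 2 alleles of each of 5 loci, on a log axis, as the allele with more LTP4 over the other; points are loci. LTP4 ratios run from 1.70 to 35.1 and all LTP3 ratios lie above 1 (1.04 to 3.83), whereas LTP1 lies on both sides of 1; the ban ratio of LTP6 rests on 2 counts in ban-7.

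The comparison of mutants with Col-0 asked which transcripts differ between flavonoid mutants and the wild type. For each of the 6 members the fitted level was lower in the mutants, with a median log2 fold change of -0.64 against 0.00 over all 21185 genes tested. The fitted change was -0.68 ± 0.33 (SE) for LTP1, -0.58 ± 0.45 for LTP2, -0.90 ± 0.76 for LTP3, -1.76 ± 1.58 for LTP4, -0.60 ± 0.65 for LTP5 and -0.28 ± 0.99 for LTP6 on the log2 scale. With a term for line ends, which rests on the tt8 libraries alone, LTP6 turned to 0.57, LTP3 came to -0.08, LTP1 to -0.27, LTP2 to -0.45 and LTP5 to -1.22. Of the 6 members 0 were called at an adjusted p of 0.05 in edgeR, whereas 2.16% of all genes were. At an unadjusted p under 0.05 in edgeR the count of members was 0, against 4058 of 21185 genes. At an adjusted p of 0.05 DESeq2 called 0 members, against 1338 genes in all. The members were chosen partly on Col-0, so nothing is read from these counts.

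The comparison of tt8 with the enzyme mutants set the 6 tt8 libraries against the 6 of ban, tt3 and tt5. LTP1 was at 286 ± 71.1 CPM (SD, n = 6) in tt8 against 244 ± 38.5 (n = 6), LTP2 at 3490 ± 857 against 4007 ± 2300 and LTP3 at 480 ± 330 against 512 ± 372. LTP5 was at 2.58 ± 1.04 against 3.58 ± 1.35 CPM and LTP6 at 0.611 ± 0.385 against 1.06 ± 1.06. LTP4 was at 175 ± 242 CPM against 278 ± 355. This is a description only, because ban-6 and tt5-4, by which the set was chosen, are among the enzyme mutants. The groups overlapped for every member, and 0 of the 6 were called by edgeR, 0 by DESeq2 and 0 at an unadjusted p of 0.05. The share called over all genes was 0%, with 739 genes at an unadjusted p under 0.05 and 4 called by DESeq2. The 95% confidence interval of the log2 difference was -0.18 to 0.68 for LTP1, -0.62 to 0.53 for LTP2, -0.89 to 1.11 for LTP3, -1.26 to 0.40 for LTP5 and -1.78 to 0.81 for LTP6. For LTP3 this leaves room for a change of about 1 log2 unit either way.

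The comparison of ttg1 with the enzyme mutants set 2 libraries against 6. LTP1 was at 166 ± 14.9 CPM (n = 2) in ttg1 against 244 ± 38.5 (n = 6) in the enzyme mutants, and LTP2 at 2138 ± 475 against 4007 ± 2300. LTP6 was at 2.06 ± 0.450 CPM against 1.06 ± 1.06. The fitted log2 fold change was -0.49 ± 0.29 for LTP1 (adjusted p = 0.411), -0.73 ± 0.39 for LTP2 (adjusted p = 0.375), 0.36 ± 0.64 for LTP3 (adjusted p = 0.810), 0.48 ± 0.52 for LTP5 (adjusted p = 0.666) and 1.33 ± 0.75 for LTP6 (adjusted p = 0.394) in edgeR's quasi-likelihood test. For LTP4 it was 1.18 ± 1.41, a description only, because ban-6 and tt5-4 are among the enzyme mutants here too. Of the 6 members 0 were called, against 0.127% of all genes. At an unadjusted p under 0.05 the count of members was 0, against 3340 of 21185 genes. DESeq2 also called 0 members, and its count over all genes is given with the alternatives. The 27 genes called in all became 0 to 237 when a library was left out. The median over the members, LTP4 among them, was 0.42 and over all genes -0.01, and nothing is read from it.

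**Figure D4:**
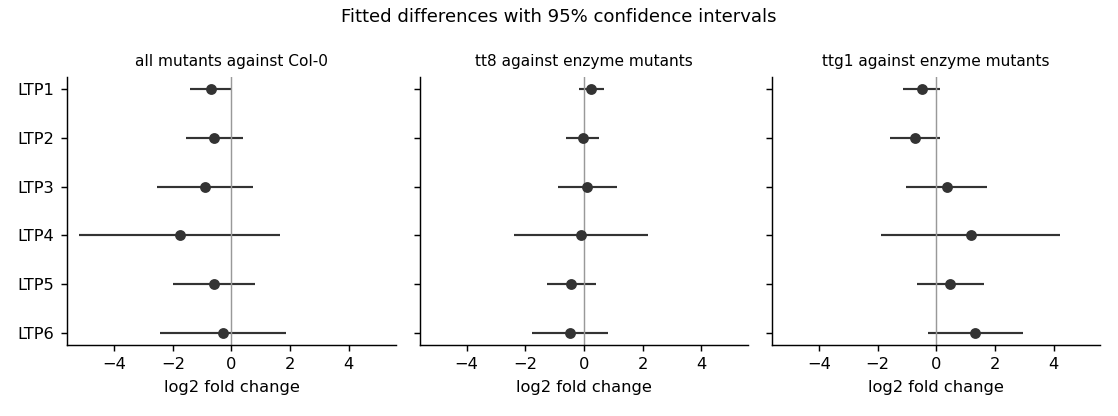
Fitted log2 fold change of each gene with its 95% confidence interval in 3 comparisons (edgeR, 17 samples). Every interval spans 0, and that of LTP4 is the broadest of the 6 in each panel.

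The pattern of LTP4 was shared by many genes outside the family. Of 15068 other genes with a mean of at least 5 CPM, 933 (6.19%) had an r of at least 0.8 with LTP4 and 1178 (7.82%) an r of -0.8 or less, with a median r of -0.22. LTP3 had 451 genes at an r of at least 0.8, LTP6 245, LTP2 20, LTP1 16 and LTP5 0. The r of 31 genes with LTP4 exceeded that of LTP3. The first principal component of all genes held 50.2% of the variance, and its r was -0.94 with LTP4, -0.87 with LTP3, -0.79 with LTP6, -0.54 with LTP2, -0.30 with LTP5 and 0.05 with LTP1. The members that followed LTP4 were thus those that went with the main axis of difference between the libraries, which also moved many other genes.

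The 8 genes most like LTP4 over 17 samples were AT3G27250 (r = 0.97), AT3G07350 (0.96), GDU1 (AT4G31730, 0.96), MYB305 (AT3G24310, 0.96), AT5G11070 (0.96), PGL1 (AT1G13700, 0.96), CYP84A4 (AT5G04330, 0.96) and AT1G77420 (0.96). GDU1, a membrane protein of amino acid export, ran from 4.01 CPM in ban-7 to 58.0 in Col-0, and MYB305, a MYB transcription factor, from 0.496 CPM in tt8-9 to 49.2 in ban-6. AT3G27250 ran from 0.0626 CPM in ban-7, which was 1 count, to 23.2 in Col-0, and was also the gene most like LTP3 (0.94), before AT5G19860 and MYB305 (each 0.93). Likeness did not mean a like range: AT1G77420 varied only between 11.9 and 21.5 CPM. AT3G27250 and PGL1 reached a mean of 5 CPM only through ban-6, tt5-4 and Col-0, where LTP4 was high. Such a filter favours genes with the pattern of LTP4. Within the other 14 samples their r with LTP4 was 0.97 and 0.94. The 4 genes most opposite to LTP4 were DHS (AT5G05920, -0.96), EMB2107 (AT5G09900, -0.95), UBC25 (AT3G15355, -0.95) and AT1G69680 (-0.95), of which the last fell to 12.8 CPM in ban-6 and reached 215 in ban-7.

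The nearest genes of the remaining members were others than those of LTP4. Those of LTP1 were HA5 (0.89), a plasma membrane proton pump, IBR1 (0.85) and SDH8 (0.85), and those of LTP2 were AT1G76590 (0.86), CBSX3 (0.86) and AT5G27410 (0.85). LTP5 had no gene at 0.8, its nearest being ALPHA DOX2 (0.78), AT3G50210 (0.77) and WRKY31 (0.76). LTP6 was nearest to AT1G21440 (0.93) and to the glucosinolate genes IMD1 (0.93) and CYP83A1 (0.91).

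Among 9 other LTP genes, 2 had a mean of at least 5 CPM and neither followed LTP4. LTP8 lay between 47.0 and 120 CPM (r = -0.13) and LTP10 between 11.5 and 34.7 CPM (r = 0.22). LTP7 had a mean of 2.89 CPM, LTP9, LTP11, LTP12 and LTP14 had at most 9 counts in a library, and LTP13 and LTP15 had 0 counts in all. Of 12 genes of membrane-anchored and related proteins 7 reached the mean, with r from -0.72 in EARLI1 to 0.84 in LTPG6.

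Genes of the surface lipids that these proteins are thought to carry had mostly a positive r with LTP4. Over 17 samples r was positive for 13 of 13 wax genes and 12 of 12 cutin genes with a mean of at least 5 CPM, with medians of 0.58 and 0.57, against 40.0% of all genes and a median of -0.22. Within the 14 samples other than ban-6, tt5-4 and Col-0, r was positive for 11 wax and 12 cutin genes, and the medians fell to 0.27 and 0.31, against 41.7% and -0.18 over all genes. The closest were CER6 (0.87) and CER1 (0.87), a fatty acid elongase and the alkane-forming enzyme of wax, CER3 (0.86) and KCS2 (0.80), and for cutin the exporter ABCG32 (0.80) and the acyltransferase GPAT8 (0.76). CER1 ran from 14.7 CPM in ban-7 to 149 CPM. Against Col-0, where 2.16% of all genes were called, 1 of 13 wax genes was called lower, KCS1 (-1.41 ± 0.33, adjusted p = 0.0493), and 3 of 13 cutin genes, CYP86A2 (-1.88 ± 0.22, adjusted p = 0.00261), GPAT4 (-1.83 ± 0.35, adjusted p = 0.0265) and GPAT6 (-1.39 ± 0.24, adjusted p = 0.0191), with 0 called higher. With the term for line ends, 15 genes were called in all in place of 458 and 0 of these 4, with adjusted p-values of 0.0862 to 0.465 and log2 fold changes of -1.33 to -1.79; KCS1 also missed the threshold with no filter (adjusted p = 0.0682), with the first Col-0 file alone (adjusted p = 0.0508) and in 14 of 16 fits that left out a library. Of the regulators of the cuticle, MYB16 (0.83), MYB96 (0.66) and MYB94 (0.55) had a positive r and MYB30 (-0.82) a negative one. GPAT8 and MYB16 reached a mean of 5 CPM only through ban-6, tt5-4 and Col-0. The values within the 14 samples keep the genes chosen over 17.

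Genes of abscisic acid, drought and cold had the highest median, at 0.79, with 12 of 16 positive and 7 at 0.8 or more; within the 14 samples the median was 0.73, with 13 of 16 positive. COR47, a dehydrin, and RD26, a NAC factor, each had an r of 0.91. The phosphatases ABI2 and ABI1, which restrain the abscisic acid signal, had 0.89 and 0.88. Other genes of the list went the other way, among them RAB18 (-0.69) and RD29B (-0.46). In the 3 comparisons 0 of these 16 genes were called in either direction. Over all genes the share called was 2.16% against Col-0, 0% for tt8 and 0.127% for ttg1, so nothing is read from this count.

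Markers of other parts of a seedling differed in their relation to LTP4, and all genes had a median r of -0.22 with 40.0% positive. Of 12 seed storage and oil body genes 1 had a positive r over 17 samples (median -0.31) and 4 within the 14 (median -0.16), and OLEO1, which coats oil bodies, had -0.81; their summed level was lowest in ttg1-24 and highest in tt1-4. Of 7 genes of the epidermal layer 2 had a positive r, FDH (0.57) and ACR4 (0.36). The homeodomain gene ANL2 had -0.76 and PDF1 -0.65. The median of the 7 was -0.42, and within the 14 samples 2 were positive with a median of -0.73. The summed level of the epidermal genes ran from 181 CPM in ttg1-24 to 622 in tt8-11. The 4 photosynthesis genes with a mean of at least 5 CPM had an r of 0.50 to 0.61 (0.23 to 0.48 within the 14). Of 3 root hair genes 1 was positive, PRP3 at 0.27, and RHD2 had -0.62, with a median of -0.06. Within the 14 samples 0 of the 3 were positive, with a median of -0.30. The summed levels of the root hair genes were 20.2 to 125 CPM. In whole seedlings, fewer cells of a type and less RNA per cell cannot be told apart, and the part of these markers in the levels of LTP4 was not tested.

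**Figure D5:**
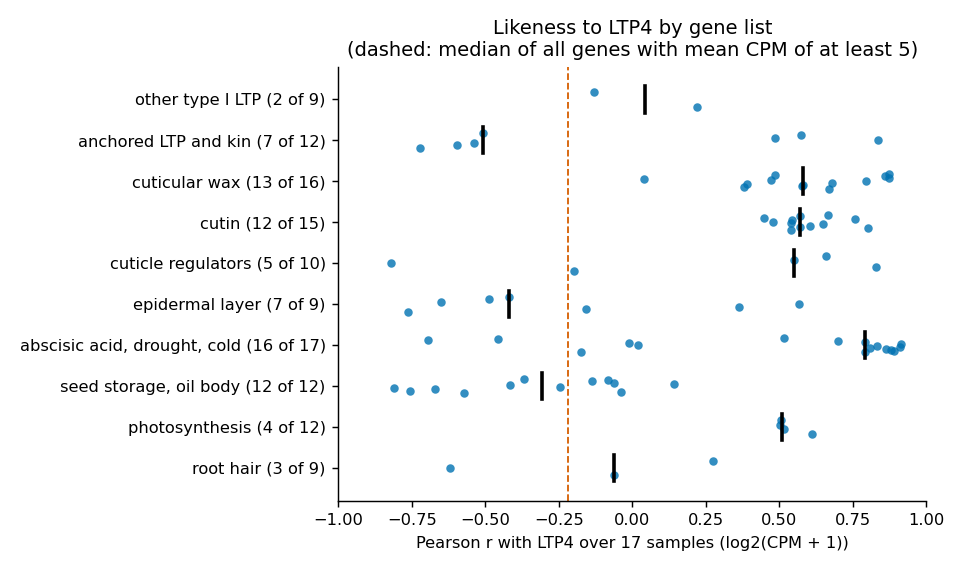
Pearson r with LTP4 over 17 samples (log2(CPM + 1)) for genes with a mean of at least 5 CPM, by list; bars are list medians, numbers in brackets are genes shown of genes listed, and the dashed line is the median of all genes (-0.22). Abscisic acid genes (0.79), wax (0.58), cutin (0.57), cuticle regulators (0.55) and photosynthesis genes (0.51) lie to the right. Anchored LTP and kin (-0.51), epidermal (-0.42) and seed storage genes (-0.31) lie to the left.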

How the data were processed

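Libraries were made with a stranded mRNA kit from 1 µg of total RNA, per the labels' protocols. The deposited values were raw counts per gene made by the authors with HISAT2 and the TAIR10 build, per the submitters' processing notes. Which program counted the reads, with which annotation and strand option, and how multiply mapped reads were treated, is not given in the sources used here. All 32547 loci matched the TAIR10.1 annotation, and 1392 rows without an AT1G to AT5G identifier stayed out of library sizes and tests.

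Replicate files were compared over 18979 genes: the Col-0 files gave a chi-square per degree of freedom of 0.222, against 9.54 to 143 for the 20 other pairs within a locus, so their rounded mean was used as 1 sample. The labels do not state separate cultures, so a p-value measures the spread between these libraries alone, which may be technical. Counts were tested with edgeR 4.0.16 (R 4.3.3; TMM scaling with factors from 0.918 to 1.07, filterByExpr, robust quasi-likelihood F-test, two-sided, Benjamini-Hochberg at 0.05) on 21185 genes and 17 samples in 7 groups, with 10 residual degrees of freedom. The single Col-0 sample is assumed to vary like the other groups. The test was tried on simulated data with known changes. DESeq2 1.42.0, other scalings, filters, sample choices, a term for line ends (Windows in both Col-0 files, tt8-8 and tt8-11, Unix in the others) and leaving out each library were alternatives. CPM levels, likeness (Pearson r of log2(CPM + 1), pseudocount 1) and promoter letters were computed in Python 3.11.15 with pandas 2.3.3 and scipy 1.17.1.

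The named genes were all members, the 8 genes most and 4 least like LTP4 with a mean of at least 5 CPM, the 3 most like each other member, the other LTP genes, and of each list up to 4 with the highest absolute r and up to 4 called. The targeted loci, HEMA1, HEMA2, the neighbours of the LTP4 and LTP3 pair, RAB18, RD29B and ACR4 are named beside this rule. The values of the lists within 14 samples, the calls of listed genes under the alternatives and the likeness over the files with Unix line ends were added after seeing the data. Members and lists were chosen with earlier results of these data known. The mean of at least 5 CPM was taken over all 17 samples, ban-6, tt5-4 and Col-0 among them.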

Additional observations from a re-analysis of the deposited data

Results flagged for a closer look

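Within the 6 libraries labelled tt8, tt8-8 lay far above the other 5 for 2 members. LTP3 was at 1110 CPM there, a gap to the next library of 0.668 of the whole range, and LTP4 at 645 CPM, a gap of 0.687, against a limit of 0.625 for 6 samples. The limit is set at 95% for normally distributed values, and the gaps were taken on CPM and not on a log scale. The tt8 levels were skewed, with a mean of 175 and a median of 77.6 CPM for LTP4. For LTP3 the mean was 480 and the median 384 CPM. How often chance alone passes the limit here is therefore not known. LTP4 is also the gene by which the set was chosen, and both genes come from the same library. Windows line ends are shared by the files of tt8-8, of tt8-11 (LTP3 257 and LTP4 28.7 CPM) and of Col-0 (857 and 709 CPM); the part of this in the levels was not tested.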

How the results depend on the processing

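In each of the 3 comparisons 0 members were called under every alternative run. The number of genes called against Col-0, 458, became 260 with no filter, 1338 in DESeq2, 4453 with the Col-0 files as 2 samples and 15 with a term for line ends, and 238 to 1314 with a library left out (1314 without ban-6). For tt8 against the enzyme mutants, 0 became 4 in DESeq2 and 0 to 4 with a library left out (4 without ban-7). For ttg1, 27 became 675 in DESeq2, 0 with only the groups compared, 85 with the Col-0 files as 2 samples and 2 with the line-end term, and 0 to 237 with a library left out. The line-end term turned the fitted change of LTP6 against Col-0 to 0.57 and of LTP3 in tt8 to -0.25. Leaving out a library gave -0.20 to 0.19 for LTP2 in tt8, above 0 without ban-6, tt5-4, tt8-9, tt8-10 or tt8-11. For LTP3 in tt8 it gave -0.35 to 0.54, below 0 without ban-7, tt5-3 or tt8-8 (-0.35 without tt8-8). For LTP6 in tt8 the range was -0.84 to 0.30, with 0.30 without ban-6. For LTP5 in ttg1 it was -0.47 to 1.00, with -0.47 without ttg1-23. The r of LTP3 with LTP4 stayed at 0.93 to 0.96 and that of LTP6 at 0.80 to 0.85 when a library was left out; that of LTP1 ran from -0.045 to 0.22 and was -0.060 over the 14 files with Unix line ends, and that of LTP5 was -0.16 without ban-6, tt5-4 and Col-0. The causes were not tested. TMM scaling moved 8 of 102 member levels by more than the SD of their locus (counting interval for Col-0), and by at most 8.98%. Depth limits LTP5 and LTP6, whose neighbouring libraries could not be told apart. No paired analysis was possible because the labels give no replicate numbers shared between the loci.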
